A study of Mus musculus with 66 samples.

Results

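The GFP-H3.2 line is a population of C2C12 cells that carries a doxycycline-inducible histone H3.2 with green fluorescent protein at its N terminus. C2C12 is a mouse myoblast line that grows as single cells in rich serum and fuses into myotubes when serum is lowered. Poly(A) RNA was sequenced from the line in growth, in medium with 20% serum, and after 48 h of differentiation in 2% horse serum. These 2 libraries, of 66 samples in the series, were compared with 16 libraries of 8 other lines made in the same way, 8 in growth and 8 differentiated, which carried GFP-tagged H3.1, H3t, H3.3, H3mm7, H3mm11, H3mm12, H3mm13 or H3mm16. The parental cells without a transgene (WT) were left out of the comparison. A gene that set H3.2 apart from the other lines need not set it apart from WT. All 9 lines shared the Tet-On cassette, its delivery by a Tol2 transposon vector, drug selection, induction by doxycycline and sorting for GFP fluorescence. A gene was a member when its FPKM (fragments divided by transcript length and by the total of mapped fragments) in the H3.2 library lay above the highest or below the lowest of the other 8 lines. Of 10931 genes with a mean of at least 1 FPKM over the 18 libraries, 394 lay outside on the same side in both states, 1093 in growth alone, 1436 in differentiated cells alone and 35 on opposite sides. Each line and state had 1 library, so a difference of the line could not be told apart from a difference of the culture. Each line had its own vector insertions. The study speaks of sorted GFP-positive cells and of stable clones, so whether a line was a pool or a clone was not settled here.

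H3.2 is one of the replication-dependent H3 proteins, which are made in S phase and placed on new DNA by the chaperone CAF-1, whereas H3.3 is made throughout the cell cycle and replaces H3 outside replication. H3.2 differs from H3.1 by the change of a cysteine to a serine. Myoblasts that leave the cell cycle switch on Myog and then the genes of the sarcomere, the contractile unit of muscle. Of 19 H3 genes listed for this comparison, 1 (Cenpa, the centromeric H3 variant) was in the table, so the level of the tagged H3.2 was not analysed here.

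The cells had the markers their labels call for. Myod1, the myoblast master regulator, stood at 25.1 FPKM in growing H3.2 cells and 59.8 FPKM in differentiated ones. Myog, the regulator of terminal differentiation, went from 3.21 to 930 FPKM. Of 10931 tested genes, between 13 and 62 were listed at 0 in a library, and 59 and 21 in the growing and differentiated H3.2 libraries. The median shift of a library from the mean profile lay between -0.05 and 0.01 on the log2 scale for all 18. Over the tested genes the H3.2 profile correlated most strongly with that of H3mm16 in growth (Pearson r = 0.985, a description across 10931 genes) and of H3mm13 after differentiation (r = 0.971), and least with that of H3mm7 in both states (0.964 and 0.931).

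In growth 640 genes (5.85% of those tested) lay above the range of the other lines and 882 (8.07%) below it. In differentiated cells 836 (7.65%) lay above and 1029 (9.41%) below. Both states had 145 genes above (1.33%) and 249 below (2.28%), which is 3.6% on the same side. The same count, made for each of the other lines against its own 8 comparison lines, ran from 104 genes for H3mm16 to 1936 for H3t, and 5 lines had more such genes than H3.2. Few H3.2 members stood far from the range. The smaller of the 2 gaps to the nearest line had a median of 0.08 log2 units above and 0.07 below, it reached 0.5 in 2 genes above and 8 below, and in no gene did it reach 1. At the edge of the rule, Msln (39.4 FPKM against a highest value of 39.4 in growth) was a member by 1.11e-04 log2 units, and Mafk (11.7 against 11.7) missed, with a gap of -1.59e-04. On the lower side Trim26 (8.72 against a lowest value of 8.72 in growth) was a member by 1.51e-04 and Map2k3 (66.4 against 66.3) missed, with a gap of -2.06e-04. The counts leaned on the H3t line, which held many of the extreme values. Without it 957 genes lay outside on the same side in both states and 2564 in growth alone. With WT added to the comparison, 257 genes lay outside on the same side in both states. For the rest of the 394, WT lay as far out as H3.2 or further in at least 1 state.

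**Figure D1:**
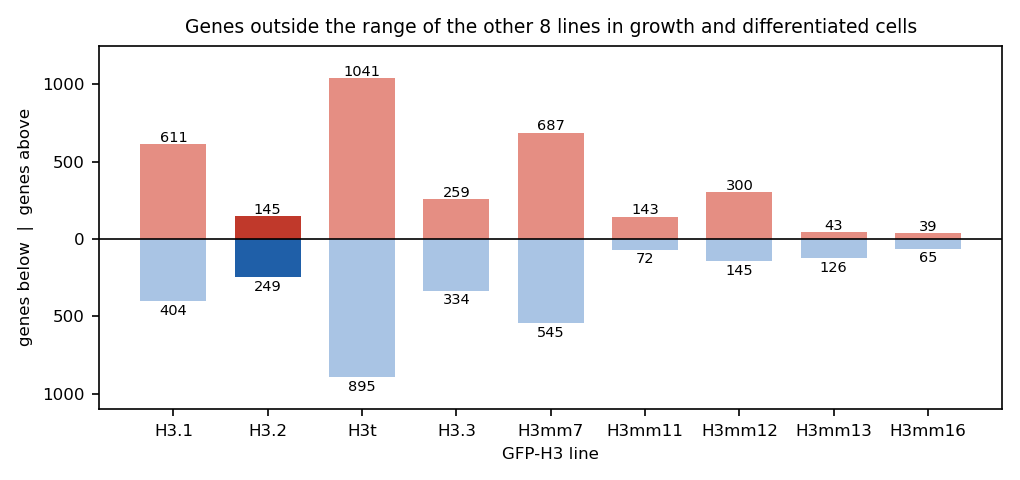
Number of genes above (upward bars) and below (downward bars) the range of the other 8 lines in both growth and differentiated cells, for each GFP-H3 line taken in turn. H3.2 (dark bars) had 145 genes above and 249 below, against 1041 and 895 for H3t and 39 and 65 for H3mm16.

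A moderated linear model (limma) asked which genes of H3.2 stood further from the other 8 lines than those lines stood from each other. The single H3.2 library of a state was assumed to vary as the others do. With calls set at an adjusted p under 0.05 and, in log2(FPKM + 1), a difference of 1 or more, 1 gene was called in growth (0.00915% of the genes tested), 3 in differentiated cells (0.0274%), 2 for the mean of both states (0.0183%) and 1 for the change between states (0.00915%). Unadjusted p-values under 0.05 were reached by 250, 282, 320 and 233 genes. Sgce, which encodes epsilon-sarcoglycan of the dystrophin-associated complex, was the only called gene with a value above 0 in both H3.2 libraries.

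Sgce (chromosome 6 of mm9, 4624350 to 4697204, minus strand) was at 4.96 FPKM in growing H3.2 cells, where the other lines had 10.0 to 16.5 FPKM with a median of 13.1. In differentiated cells it was at 4.74 FPKM, against 16.2 to 28.0 FPKM with a median of 21.5. Neither H3.2 value overlapped the others, and the gene rose with differentiation in each of the other 8 lines but not in H3.2. The difference in log2(FPKM + 1) was -1.95 ± 0.25 (SE) in differentiated cells (limma adjusted p = 0.0484), -1.58 ± 0.18 for the mean of both states (limma adjusted p = 0.0145) and -1.21 ± 0.23 in growth (limma adjusted p = 0.985). The call in differentiated cells sat at the threshold. It was lost when H3t (limma adjusted p = 0.142), H3mm7 (0.0828), H3mm11 (0.132), H3mm12 (0.133), H3mm13 (0.122) or H3mm16 (0.161) was left out, while the difference stayed between -1.97 and -1.94. The call on the mean of both states was lost without H3mm16 (limma adjusted p = 0.0567).

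The other called genes were listed at 0 in an H3.2 library. Zmynd8, a chromatin reader, was listed at 0 FPKM in growing H3.2 cells and at 13.8 to 20.4 FPKM in the other lines, yet at 13.1 FPKM in differentiated H3.2 cells against 13.01 to 21.4. Nono, an abundant nuclear RNA-binding protein, was listed at 0 in differentiated H3.2 cells and at 121 to 174 FPKM elsewhere, and the growing H3.2 cells had 210 FPKM. Nono was also listed at 0 in the growing H3mm7 library. Amd2, a gene for the polyamine enzyme S-adenosylmethionine decarboxylase whose near-identical partner Amd1 can share its reads, was listed at 0 in both H3.2 libraries and in the growing H3.1 and H3mm13 libraries, and at 20.9 to 69.1 FPKM in the other differentiated ones. A value of exactly 0 for a gene that every other line expressed can be a failed estimate, and FPKM do not tell such a failure from absence of the transcript. With genes listed at 0 left out, limma called 1 gene for the mean of both states, Sgce, and none in growth, in differentiated cells or for the change.

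Peg10, which derives from a retrotransposon, lies head to head with Sgce (chromosome 6, 4697306 to 4710514, plus strand), with 102 bases between the annotated starts, and both genes are imprinted and expressed from the paternal copy. Peg10 was at 1.45 FPKM in differentiated H3.2 cells, against 4.06 to 11.4 FPKM with a median of 7.14. In growth its 7.50 FPKM lay within the 5.33 to 36.8 FPKM of the other lines. Among other imprinted genes, Ndn in both states and Mest in differentiated cells lay above the range, and Igf2 lay below it in growth. Ndn (necdin, chromosome 7) was at 11.3 FPKM in growing H3.2 cells against 0 to 9.76 FPKM, and at 10.4 FPKM after differentiation against 0 to 4.07 FPKM. Mest (chromosome 6, 30673547 to 30698457) was at 9.32 FPKM in differentiated H3.2 cells against 0.826 to 3.01 FPKM, and within the range in growth at 0.797 FPKM. Igf2, the fetal growth factor, had 0.0326 FPKM in growth, where the other lines had 0.166 to 5.61, and 14.2 FPKM in differentiated cells, inside a range of 0 to 106. Of the 15 tested genes of the IGF and imprinted list, 1 lay above and 2 below the range in growth, and 2 above and 3 below in differentiated cells. All tested genes had 5.85% above and 8.07% below in growth, and 7.65% and 9.41% in differentiated cells. H19, Peg3 and Igf2r were within the range in both states.

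**Figure D2:**
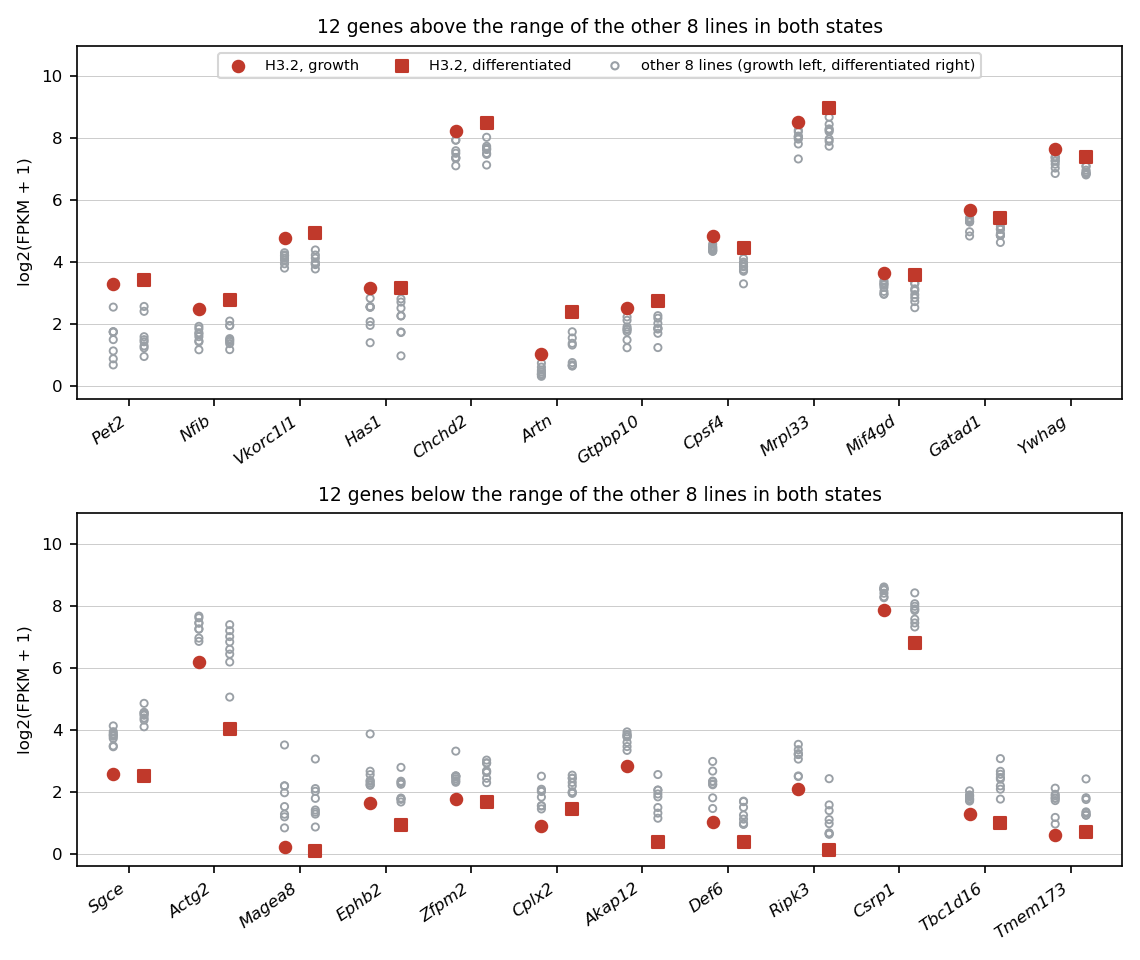
FPKM, as log2(FPKM + 1), of the 12 genes furthest above and the 12 furthest below the range in both states, chosen by the smaller of their 2 gaps. Red symbols are H3.2 (circle growth, square differentiated) and grey circles the other 8 lines. Sgce has the largest smaller gap, and 7 of the 12 upper genes lie on chromosome 5.

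The genes furthest above the range in both states were led by Pet2, an X-linked gene. Pet2 was at 8.92 FPKM in growth against 0.614 to 4.88 FPKM and at 9.69 FPKM in differentiated cells against 0.948 to 4.97 FPKM. Nfib, a transcription factor of the nuclear factor I family, was at 4.58 FPKM in growth against 1.26 to 2.82, and at 5.82 FPKM after differentiation against 1.27 to 3.305. Has1, a hyaluronan synthase, was at 7.93 and 7.96 FPKM in the 2 states, against 1.65 to 6.17 and 0.976 to 6.07 FPKM. Growing WT cells had more Has1 than H3.2, at 9.51 FPKM, and differentiated WT cells less, at 4.73 FPKM. Artn, a neurotrophic ligand of the GDNF family, had 1.07 FPKM in growth against 0.2502 to 0.682, and 4.28 FPKM after differentiation against 0.573 to 2.39. Mif4gd, which binds the stem-loop binding protein of histone mRNAs, was at 11.6 FPKM in growth against 6.82 to 9.59, and at 10.9 FPKM after differentiation against 4.80 to 9.04. None of the 5 was called by limma.

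Beyond the named rule, and picked after their values were seen, were the long non-coding RNA Neat1 of the nuclear paraspeckle and the basal keratin Krt14. Neat1 was at 41.9 FPKM in growth against 5.47 to 25.6, and at 81.6 FPKM after differentiation against 13.5 to 71.6. Krt14 was at 86.9 FPKM in growth against 55.9 to 79.2, and at 25.96 FPKM after differentiation against 4.53 to 12.96. For Krt14 the gap was thus wider in differentiated cells, where every line had less of it.

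Chromosome 5 carried most of the genes above the range in both states, a pattern that was noticed in the data. Of the 145 genes, 140 had a single place in the mm9 annotation and 82 of these (58.6%) were on chromosome 5, which held 653 (6.35%) of the placed tested genes. On chromosome 5, 12.6% of the tested genes were above in both states. On every other chromosome the share was between 0% and 1.54%. With chromosome 5 left out, 63 genes remained above and 245 below.

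The genes were ordinary cellular ones. Vkorc1l1 (vitamin K epoxide reductase family; 130417979 to 130460615) was at 26.8 FPKM in growth against 13.1 to 18.9 and at 29.5 FPKM after differentiation against 12.8 to 20.1. Its neighbour Chchd2, a mitochondrial and nuclear protein, was at 303 and 365 FPKM, against 138 to 246 and 140 to 262. Mrpl33, a mitochondrial ribosomal protein, was at 368 and 501 FPKM, against 161 to 307 and 214 to 411. Gtpbp10, a mitochondrial GTPase, was at 4.76 and 5.70 FPKM, against 1.37 to 3.73 and 1.38 to 3.86. The mRNA 3′ end processing factor Cpsf4, the GATA zinc finger protein Gatad1 and the 14-3-3 protein Ywhag were the other chromosome 5 genes among the 12 furthest above. Ywhag, for one, was at 201 FPKM in growth against 116 to 169, and at 168 FPKM after differentiation against 112 to 137. For Gatad1, H3.2 had 50.4 and 41.9 FPKM in growth and differentiated cells, and WT had more, at 55.2 and 46.2 FPKM. No chromosome 5 gene was called by limma.

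The difference ran through the chromosome rather than through a few genes. The median difference of H3.2 from the median of the other 8 lines, in log2(FPKM + 1), was 0.24 over the 653 genes in growth and 0.30 in differentiated cells. Over all tested genes the median difference from their mean was 0.00 and -0.02. In 8 consecutive windows of 20000000 bases the chromosome 5 median lay between 0.14 and 0.33 in growth and between 0.20 and 0.41 in differentiated cells, and all 16 values were positive. The highest count of members, 34 of 177 tested genes, fell between 120000001 and 140000000, the window with the most tested genes. Between 140000001 and 160000000 there were 19 members of 80 tested genes, a larger share. H3.1 was the only other line with a median of like size, 0.25 in growth and 0.23 in differentiated cells. H3.3 stood at 0.11 and 0.08, and the remaining 6 lines lay between -0.13 and -0.01. Directly, H3.2 and H3.1 differed by a median of -0.05 on chromosome 5 in growth and 0.04 in differentiated cells. Because H3.1 is in the range that a gene had to pass, it hid part of the pattern. With H3.1 set aside, H3.2 was above the other 7 lines for 244 chromosome 5 genes (37.4%) in growth and 265 (40.6%) in differentiated cells, against 5.98% and 6.81% of the 9626 genes placed elsewhere. When H3.1 was left out of the main count, 139 of 239 genes above the range in both states were on chromosome 5, and without H3t 126 of 464 were. The DNA libraries of the series were not analysed here, so the part of chromosome number in this difference was not tested.

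**Figure D3:**
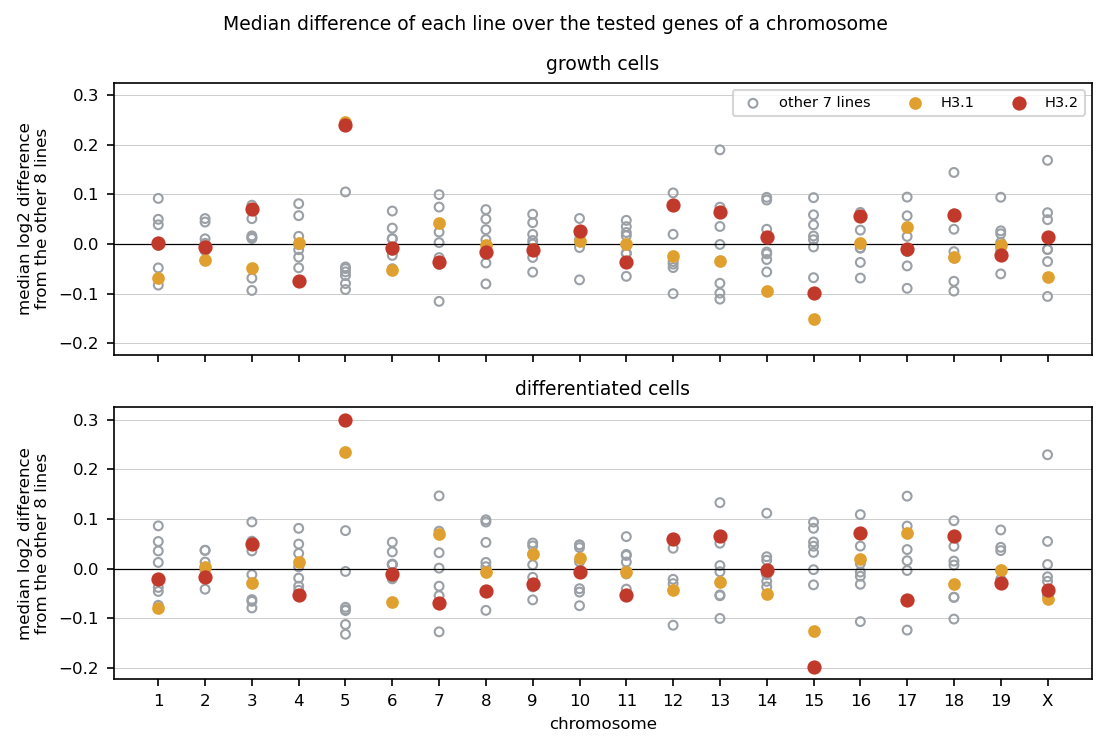
Median difference of each line from the median of the other 8, in log2(FPKM + 1), over the tested genes of each chromosome, in growth (top) and differentiated cells (bottom). H3.2 (red) stands at 0.24 and 0.30 on chromosome 5, next to H3.1 (orange), and is the lowest line on chromosome 15 in differentiated cells.

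Chromosomes 4 and 15 were lower in H3.2. On chromosome 4, 50 of 634 tested genes (7.89%) lay below the range in both states, a larger share than on any other chromosome, and 44 of the 50 started beyond position 120000000. There the window medians were -0.18 and -0.24 in growth and -0.22 and -0.30 in differentiated cells, outside the values of the other lines in those windows. Proximal to this, the window from 80000001 to 100000000, which holds Nfib, had medians of 0.21 and 0.30. These lay inside the values of the other lines, which reached 0.32 and 0.33 there. In the window between, from 100000001 to 120000000, the growth median of 0.10 lay above every other line, of which the highest had 0.08. Its median of 0.15 in differentiated cells lay inside the others, which reached 0.19. That window held 3 genes above the range in both states and 0 below. Ephb2, an ephrin receptor kinase at 136203454 to 136391903, was at 2.11 FPKM in growing H3.2 cells against 3.65 to 13.7, and at 0.889 FPKM in differentiated cells against 2.20 to 5.93. Capzb, the beta subunit of the actin capping protein, picked after its values were seen, was at 198 and 153 FPKM, against 247 to 275 and 169 to 293. On chromosome 15 the median difference was -0.10 in growth, where H3.1 was lower still at -0.15, and -0.20 in differentiated cells, below each of the other lines. Zfpm2, a GATA cofactor on chromosome 15, was at 2.40 FPKM in growth against 3.97 to 8.97, and at 2.20 FPKM after differentiation against 3.92 to 7.16.

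**Figure D4:**
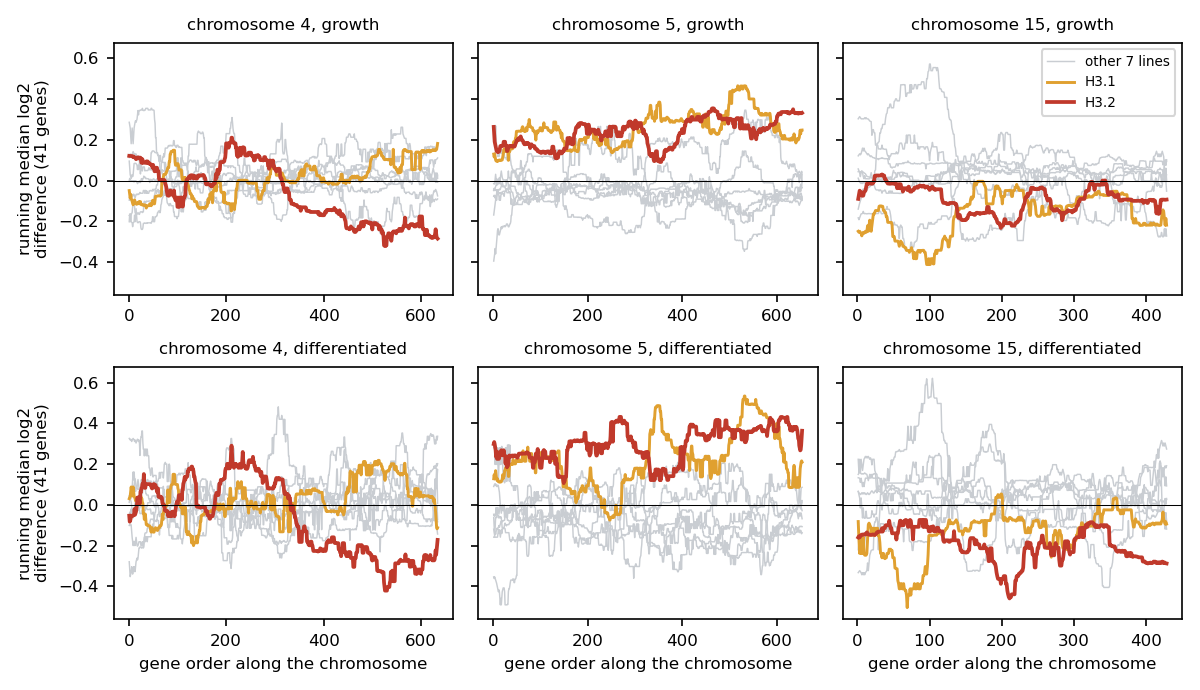
Running median, over 41 consecutive tested genes, of the difference of each line from the median of the other 8, in log2(FPKM + 1), for chromosomes 4, 5 and 15, plotted by gene order. H3.2 (red) stays above 0 along chromosome 5 and falls below 0 over the later genes of chromosome 4.

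Among the 12 genes furthest below the range in both states, after Sgce, were Actg2, Csrp1 and Akap12. Actg2, the smooth muscle gamma-actin (chromosome 6, 83462899 to 83486259), was at 72.3 FPKM in growth against 115 to 203, and at 15.3 FPKM after differentiation against 32.4 to 168. WT had less Actg2 than H3.2 in growth, at 46.6 FPKM, and more after differentiation, at 45.4 FPKM. Csrp1, a LIM protein of actin bundles, was at 232 and 112 FPKM, against 308 to 391 and 159 to 343. Akap12, a scaffold of protein kinase A, was at 6.13 and 0.311 FPKM, against 9.13 to 14.3 and 1.22 to 4.91. Of the smooth muscle markers 3 of 4 passed the filter on low values, and none was called by limma. Acta2 was below the range in growth, at 421 FPKM against 470 to 1189, and within it after differentiation. Tagln was below the range in growth by a narrow gap, at 111 FPKM against 112 to 338. Cnn1 was below it after differentiation, at 0.0133 FPKM against 0.375 to 3.26. Srf, the serum response factor that binds the promoters of smooth muscle genes, was picked after its values were seen. It was at 19.6 FPKM in growth against 22.9 to 34.8, and at 14.5 FPKM after differentiation against 16.8 to 41.2.

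Ripk3, Tmem173 and Def6 were also among the 12 furthest below. Ripk3, the kinase of necroptosis, was at 3.25 FPKM in growth against 4.65 to 10.6, and at 0.104 FPKM after differentiation against 0.552 to 4.38. Tmem173, the cytosolic DNA sensor adaptor STING, was at 0.513 and 0.626 FPKM, against 0.952 to 3.35 and 1.38 to 4.35. Def6, of lymphocyte signalling, was at 1.04 and 0.314 FPKM, against 1.76 to 6.92 and 0.941 to 2.26. The remaining members of this set were Magea8, a cancer-testis antigen gene, Cplx2, a complexin of vesicle fusion, and Tbc1d16, a Rab GTPase-activating protein. They reached 1.71 FPKM at most in H3.2 cells, so they rest on low levels. Of the 18 tested interferon-stimulated genes, 1 was above and 3 were below the range in growth, and 2 were below after differentiation, with median differences of -0.20 and -0.24. Over all tested genes these shares were 5.85%, 8.07% and 9.41%, and 2 of 18 is near the last of them.

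Extracellular matrix genes were below the range more often than above it. Of 41 tested, 10 were below and 1 above in growth, and 9 below and 1 above in differentiated cells, against 8.07% and 9.41% of all tested genes below. The 5 that were below in both states were Col4a2, Col5a2, Col6a1, Col12a1 and Emilin1. Col12a1, a collagen at fibril surfaces, was at 11.6 FPKM in growth against 15.1 to 38.7, and at 6.11 FPKM after differentiation against 7.48 to 106. Col5a2 missed the range by 0.01 log2 units in each state. The gene above the range in differentiated cells was Col1a1, the main fibrillar collagen, at 51.0 FPKM against 0.220 to 42.5. In growth Col1a1 stood at 70.4 FPKM, and the other lines covered 1.95 to 104. Col1a1 is also a fibroblast marker, of which 2 of 5 passed the filter. The other, Dcn, was within the range in both states.

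The genes outside the range in growth alone were 481 above (4.4%) and 612 below (5.6%). Among them was the long non-coding RNA Pvt1, next to Myc on chromosome 15, at 8.37 FPKM against 2.76 to 4.42. Rpl22l1, a ribosomal protein paralogue, was at 444 FPKM against 110 to 292, and after differentiation its 472 FPKM lay inside 114 to 571. Wnt10b, a Wnt ligand, was at 19.4 FPKM against 7.92 to 13.5, and WT had 20.6 FPKM. Sphk1, a sphingosine kinase, was at 8.81 FPKM against 2.59 to 6.61. Tmem238, Havcr2, Cd209c and Ccdc24 completed the 8 with the widest gaps above, between 3.59 and 19.4 FPKM in H3.2.

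Below the range in growth alone, apart from Zmynd8, were Cd34 and Fas. Cd34, a sialomucin of progenitor cells, was at 0.590 FPKM against 1.06 to 7.38, and recovered to 4.21 FPKM after differentiation, inside 2.22 to 8.51. Fas, the death receptor and p53 target, was at 0.890 FPKM against 1.45 to 4.54. Ldb3, a Z-disc protein, was at 6.85 FPKM against 9.35 to 15.1 in growth and at 41.2 FPKM, near the middle of the other lines, after differentiation. Plac8, Cryl1, Fbxo17 and Galnt18 were the other named genes of this group, between 0.695 and 6.84 FPKM in H3.2. Of 21 tested p53 targets, 5 were below and 1 above the range in growth, and 3 below after differentiation, against 8.07%, 5.85% and 9.41% of all tested genes. Trp53inp1 was below in both states.

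In differentiated cells alone 670 genes (6.13%) lay above and 766 (7.01%) below. Gas6, the vitamin K-dependent ligand of the TAM receptors, was at 6.55 FPKM against 0.147 to 1.46. In growth its 2.09 FPKM lay inside 0.116 to 2.54. Tspyl4, a nucleosome assembly protein family member, was at 10.3 FPKM against 1.03 to 5.03. Clec3b, tetranectin, was at 10.3 FPKM against 0.0751 to 5.40, and near 0 in every growing line. Btbd19, Abhd1 and Tyr, between 2.87 and 14.4 FPKM in H3.2, also belonged to the 8 widest gaps above, with Mest and Dnajb9.

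Below the range in differentiated cells, Lpl, the lipoprotein lipase, was at 1.81 FPKM against 4.71 to 34.4. Lpl is also an adipocyte marker, of which 3 of 6 passed the filter, and the others, Pparg and Fabp4, were within the range. Triobp, an actin-binding protein, was at 10.6 FPKM against 20.3 to 29.7. Fibin was at 0.907 FPKM against 2.32 to 30.7, and Lmcd1, a LIM protein, at 0.244 FPKM against 1.12 to 2.71. Has2as, an antisense RNA of a hyaluronan synthase gene, was at 2.00 FPKM against 4.68 to 7.50, and without strand its reads cannot be told apart from those of its partner. Genes on opposite sides were few, 35 (0.32%). Dusp14, a phosphatase, was below the range in growth at 20.4 FPKM against 22.8 to 31.0 and above it after differentiation at 47.6 FPKM against 13.2 to 34.5. Ubald2 took the same course, and Tomm34 and Mkl2, the latter a coactivator of Srf, the reverse. For none of the 4 was the change between states called by limma.

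The unfolded protein response genes of H3.2 are described next. When unfolded proteins gather in the endoplasmic reticulum (ER), sensors raise chaperones and, through translation of Atf4, genes for amino acid supply. The lists of ER stress and amino acid response genes, which share some members, were near the other lines in growth, with median differences of 0.00 and 0.05 over 32 tested genes each. In differentiated cells the medians were 0.46 and 0.60, and 26 and 31 of 32 genes had a positive difference, against a median of -0.02 over all tested genes. The mean level of the ER list in differentiated H3.2 cells, 7.12 in log2(FPKM + 1), was nevertheless exceeded by H3.3, H3mm11 and H3mm7, the highest at 8.00. The same 3 lines also exceeded the 7.16 of the amino acid list. Next below H3.2 was H3mm13, at 6.17 and 6.55. The study set these 3 lines in a group with higher expression of ER stress genes and H3.2 in another. No gene of either list was called by limma.

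Single genes of these lists did pass all the other lines. Dnajb9, an ER co-chaperone, was at 182 FPKM in differentiated H3.2 cells, against 17.3 to 108 FPKM with a median of 29.8, where H3.3 was next. In growth it was at 7.54 FPKM, within 4.85 to 8.13. Herpud1, of ER-associated degradation, was at 515 FPKM against 53.4 to 459. Atf4 itself was above in both states, at 312 FPKM against 233 to 304 and at 914 FPKM against 306 to 791. Its downstream genes Fgf21, a secreted stress hormone, and Nupr1, a stress-induced nuclear protein, were at 118 FPKM against 11.9 to 85.8 and at 473 FPKM against 82.7 to 370.5. Psph, the last enzyme of serine synthesis, and Mars, the methionyl-tRNA synthetase, were the other 2 of the 5 amino acid response genes above the range after differentiation, and Psph, on chromosome 5, was above in growth as well. These 5 of 32, and 3 of 32 ER stress genes, compare with 7.65% of all tested genes above the range, and 3 of 32 is near that share. In growth 2 ER stress genes were above and 4 below, and 4 amino acid response genes were above and 1 below. Over all tested genes 5.85% were above and 8.07% below in growth.

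The promoters of these genes were searched for the amino acid response element, where Atf4 binds, because Atf4 was above the range in both states. The pattern TGATGNAA was looked for on both strands in RefSeq promoters of GRCm38.p6, from 250 bases before to 50 after the start. It was present in 2.63% of 8170 tested genes with a promoter in the table, in 11 of 27 amino acid response genes and in 2 of 27 ER stress genes. Of the genes with a match, 3 were above the range in differentiated cells, Fgf21, Nupr1 and Herpud1, and their matches are printed with 8 bases on each side, in lower case, and the fixed letters of the pattern in capitals.

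Fgf21 (chr7:45615614-45615637, plus strand): tggacggaTGATGcAAtggggggg

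Nupr1 (chr7:126625565-126625588, plus strand): gccctgtcTGATGcAAtctggccc

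Herpud1 (chr8:94386309-94386332, minus strand): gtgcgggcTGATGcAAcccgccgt

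The 12 genes of both lists with a match all had a positive difference in differentiated cells, with a median of 0.92, against 33 of the 39 searched genes without one, whose median was 0.46. In growth 6 of the 12 had a positive difference, with a median of -0.01, against 24 of the 39, whose median was 0.04. The ER stress response element, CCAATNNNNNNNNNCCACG, was in the promoters of 0.159% of tested genes and of 8 of the 27 ER stress genes. None of these 8, Hspa5, Calr and Creld2 among them, was above the range after differentiation, and 6 of them had a positive difference, with a median of 0.69, while 39 of the 43 searched genes without the element had one, with a median of 0.61. The sequence of Hspa5, the ER chaperone BiP, shows the element with its fixed letters in capitals.

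Hspa5 (chr2:34772020-34772048, plus strand): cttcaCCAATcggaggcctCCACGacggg

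A match is a stretch of letters and not a site shown to be bound, and the sets were formed after the values were seen. Most list genes with the amino acid response element came from the amino acid response list. A match could thus not be told apart from membership of that list. Whether Atf4 had a part in these differences was not tested.

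Cholesterol synthesis genes had a median difference of -0.09 in growth. Of 23 tested, 21 had a positive difference in differentiated cells with a median of 0.73, 3 were above the range, against 7.65% of all tested genes, and none was below. Insig1, a sterol sensor, was at 187 FPKM against 58.4 to 174. Mvd and Mvk, enzymes of the mevalonate pathway, were at 139 and 58.0 FPKM, against 30.9 to 124 and 12.6 to 51.7. In the mean over the list H3t alone was higher, at 6.77 against 6.62 for H3.2.

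Muscle genes were low in growing H3.2 cells and high, within the range, in differentiated ones. The low level in growth was not particular to H3.2. The mean over the list in growth was 1.95 on the log2 scale in H3.2, and lower still in H3.1 (1.53) and H3t (1.81). The other 6 lines were higher. Of 38 tested genes, 3 had a positive difference in growth, with a median of -0.33, and 33 in differentiated cells, with a median of 0.37. None was called by limma. Below the range in growth were Tpm2, at 102 FPKM against 117 to 181, and Mybph and Ckm, which were at or near 0, and 3 of 38 is close to the 8.07% of all tested genes below the range. After differentiation no muscle gene was outside the range. Tnnc2, the fast skeletal troponin C, was at 1434 FPKM against 310 to 2648, and Acta1, skeletal alpha-actin, at 2934 FPKM against 1432 to 7352. In this bulk RNA, more cells that had turned on these genes and more RNA of them in each cell cannot be told apart. The mean over the list rose from growth to differentiation by 5.49 log2 units in H3.2 and by 3.48 to 5.73 in the other lines, and 2 lines exceeded H3.2.

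**Figure D5:**
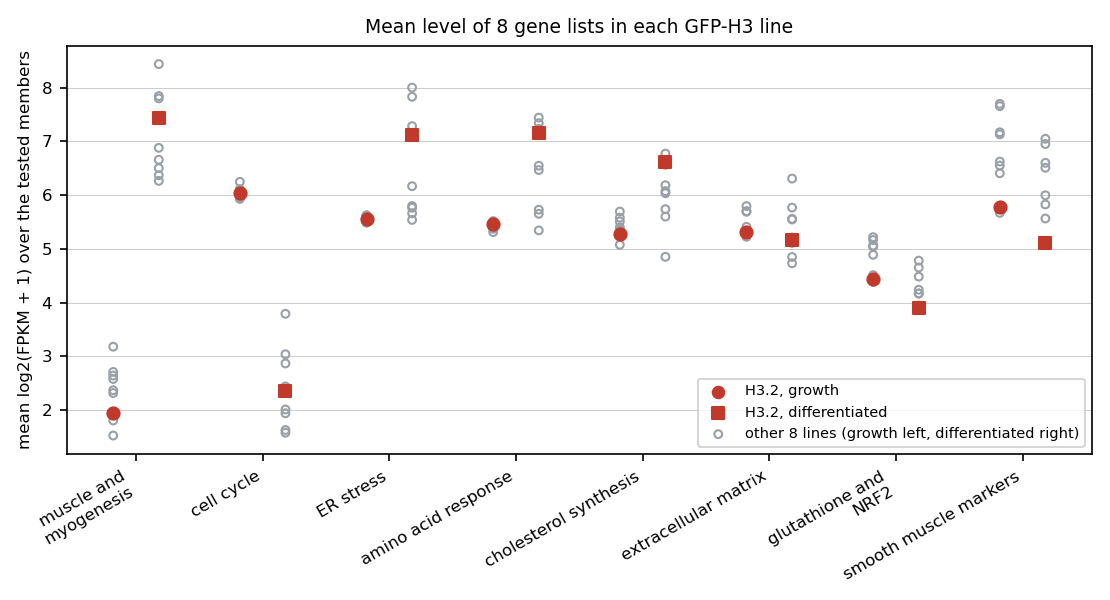
Mean log2(FPKM + 1) over the tested members of 8 gene lists in each line, with growth on the left and differentiated cells on the right of each position. H3.2 (red) lies within the other lines (grey) for the ER stress, amino acid, cholesterol and muscle lists. For the 3 smooth muscle markers H3.2 is lowest in differentiated cells by a narrow gap, at 5.11 with H3.3 next at 5.14. In growth H3.1 (5.67) is lower than H3.2 (5.78) for these markers.

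Genes of glutathione metabolism and NRF2, the regulator of the antioxidant response, mostly had negative differences in both states. Of 27 tested, 4 and 5 had a positive difference in growth and differentiated cells, with medians of -0.38 and -0.37, against 0.00 and -0.02 over all tested genes. None was above the range, and 3 and 5 were below it, against 8.07% and 9.41% of all tested genes, so the count in growth was close to that share. Hmox1, heme oxygenase, was at 73.8 FPKM in growth against 81.6 to 150, but inside the range after differentiation. In the mean level H3.1 in growth and H3mm12 in differentiated cells were lower than H3.2. Heat shock genes had a median difference of 0.03 in growth and -0.18 in differentiated cells, where 4 of 22 were below the range, against 9.41% of all tested genes. Hspa8, the constitutive cytosolic chaperone, was at 1055 FPKM against 1469 to 2680.

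Of 20 tested genes for chaperones that handle H3, none was outside the range in growth. In differentiated cells Chaf1a, the large subunit of CAF-1, Mcm2 and Cabin1 were below it, against 9.41% of all tested genes. The mean over this list fell by 1.30 log2 units from growth to differentiation in H3.2 and by 0.89 to 1.21 in the other lines. Chaf1a was at 1.31 FPKM against 1.74 to 5.39. Of 40 cell cycle genes, 2 were below the range in each state, under the shares of all tested genes, and none above, with medians of -0.05 and -0.07. The Polycomb and Hox list had 1 gene above and 1 below in growth and 5 below of 28 in differentiated cells, where 9.41% of all tested genes were below. Among them was Hoxc6, at 5.23 FPKM against 8.23 to 14.1. The lists of TGF-beta, BMP and Id genes (31 tested), hypoxia and glycolysis (25), chemokines and inflammation (18) and surface and adhesion (31) had at most 4 genes outside on one side in a state. After differentiation 4 of 25 hypoxia and 4 of 31 surface genes were below, against 9.41% of all tested genes. The TGF-beta list then had 3 above and 1 below, against 7.65% and 9.41% of all tested genes. Among the genes of these lists Hey1, a Notch target, was at 12.6 FPKM after differentiation against 3.103 to 8.62, and Inhba, the activin A subunit, at 4.25 FPKM against 7.43 to 17.3. None of the 5 myoblast markers, and of the 6 myotube markers Ckm in growth alone, lay outside the range. Markers of osteoblasts, endothelium and macrophages had 1 tested gene each, of which Cdh5, the endothelial cadherin, was below the range after differentiation, at 0.0275 FPKM against 0.164 to 1.90. The genes that the study follows in these cells, Tnnc2, Pttg1, Avil, Mgp and Cdsn, were within the range in both states.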

How the data were processed

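Expression was taken from the deposited table of FPKM values (22489 genes, 20 libraries, 18 of GFP-H3 lines), which the authors made with TopHat2 2.0.8 and Cufflinks 2.0.1 (Cuffdiff) on mm9. FPKM divide fragments by transcript length and depth, which leaves the sequencing depth unknown, gives no counting error and hides the precision of low values. Genes with a mean of at least 1 FPKM over 18 libraries were kept and values were taken as log2(FPKM + 1), a scale that shrinks differences between low values. Ranges were compared directly. limma 3.58.1 (R 4.3.3), with trend and robust settings, fitted H3.2 against the other 8 lines on 7 residual degrees of freedom per state, adjusted by Benjamini-Hochberg. Data were simulated with 100 genes changed by 2 log2 units and 100 by 3. In growth 88% and 97% of these were recovered, with 5 false calls among 10931 genes. In differentiated cells 74% and 88% were recovered, with 3 false calls. The measured data gave 1 call in growth and 3 in differentiated cells. Recovery with so few changed genes was not tested. Positions came from the annotation of NCBIM37, which is mm9.

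The members, lists and lines to compare were chosen with earlier results of these data known. Named genes were the 12 with the largest smaller gap on each side in both states, the 8 with the largest gap on each side in each state alone, 4 on opposite sides, list members outside the range, and the genes the study follows. Provisional gene models were passed over. The series' 3′-seq tables of RPM values were not used here. Alternatives were other pseudocounts (0.1 and 5 FPKM), other filters, 2 normalizations, WT added, each line left out, genes listed at 0 left out, limma without trend and robust settings, and, chosen after seeing the data, chromosome 5 left out. Sequences were taken from RefSeq (GRCm38.p6).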

Additional observations from a re-analysis of the deposited data

Results flagged for a closer look

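The difference between H3.2 and the other lines changed between states for Zmynd8 by 4.03 log2 units (differentiated minus growth, limma adjusted p = 6.19e-05), a tested difference between states. It rests on the value of 0 listed for Zmynd8 in the growing H3.2 library, and with genes listed at 0 left out no gene passed this test. Since each line and state had 1 library, no search for a library apart from its own replicates could be made.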

How the results depend on the processing

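Libraries could not be paired by replicate, because each line and state had 1 library and the labels give no replicate numbers among them. The growth and differentiated libraries of a line were paired in the fits for the mean of both states and for the change. The 91 differences of named genes kept their direction in all 1574 recomputed values. This was largely fixed by the choice of the genes, which were named for lying outside the range of the other lines. Leaving out a line, or changing the pseudocount, the filter or the limma settings, cannot reverse the difference of such a gene. Of the 1574 values, 19 fell below the threshold, all of Sgce, Amd2 or Zmynd8. Calls by limma, 1 in growth, 3 in differentiated cells, 2 for the mean of both states and 1 for the change, were few and moved with the settings. In growth they were 2 with a pseudocount of 0.1 FPKM, 3 with no filter on low values and 0 without genes listed at 0. In differentiated cells they were 1 with a pseudocount of 5 FPKM, 5 with no filter, 1 with WT added and 0 without genes listed at 0. For the mean they were 0, 4 and 1 with a pseudocount of 5 FPKM, with no filter and without genes listed at 0, and for the change 0 without genes listed at 0. Leaving out 1 line gave 1 to 2 calls in growth (2 without H3mm7), 1 to 4 in differentiated cells (1 without H3t or H3mm16), 1 to 4 for the mean (4 without H3mm7, 1 without H3mm16) and 1 to 3 for the change (3 without H3mm7, 2 without H3mm13). Sgce in differentiated cells had limma adjusted p-values between 0.0086 and 0.162 over 18 alternatives and passed in 6, and for the mean of both states between 0.00713 and 0.0621, passing in 16. Genes outside the range on the same side in both states were 257 with WT added and 419 to 957 with 1 line left out. Those in growth alone were 1950 with no filter and 1089 to 2564 with 1 line left out. A wider or smaller range of lines changes such counts by construction, and the cause of the other moves was not tested. Quantile normalization gave 533 above and 527 below in growth alone, where the main counts were 481 and 612.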
